A study of Homo sapiens with 16 samples.

Results

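The mRNAs of 9 laminin and integrin chains, LAMA3, LAMA5, LAMB1, LAMB3, LAMC1, ITGA2, ITGA3, ITGA6 and ITGB4, were followed in 2 colorectal cancer cell lines given the antifungal drug itraconazole. The genes were chosen by name as chains of epithelial basement membrane laminins and of integrins that bind to matrix. Earlier results of these data were known when they were chosen. They were matched by symbol to the Ensembl identifiers of the count tables. All 9 were found among 54127 identifiers, and all 9 passed the filter on low counts in every comparison. HT55 and SW948, both established human colorectal cancer lines, were grown as adherent cultures with serum and received itraconazole at 5 µM or its solvent DMSO for 6 days. RNA sequencing of total RNA gave 4 replicates in each of 4 groups, called HT55_CONT, HT55_ITRA, SW948_CONT and SW948_ITRA in the labels, 16 libraries in all. The labels give 1 dose and 1 time. The study's methods describe its replicates as biological, and the p-values measure the spread between them.

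Laminins are trimers of an alpha, a beta and a gamma chain that are secreted beneath epithelia and become part of the basement membrane. Each chain has its own gene, and the trimer is named by its chains: the alpha 3 and beta 3 chains belong to the laminin of hemidesmosomes and anchoring filaments, and alpha 5 with beta 1 and gamma 1 forms a main laminin of the intestinal basement membrane. Integrins are alpha-beta heterodimers of the cell surface that bind matrix outside the cell and the cytoskeleton inside it. Alpha 6 beta 4 binds laminin in hemidesmosomes and connects it to keratin filaments, alpha 3 beta 1 is a laminin receptor of the basal surface, and alpha 2 beta 1 binds collagen and, in some cells, laminin.

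Gene counts per library ran from 8269406 to 11110814, and the lowest count of any of the 9 genes in a library was 330. Levels are given as counts per 1000000 (CPM), scaled by the TMM method over the 16 libraries, and all errors are SD over 4 libraries unless named otherwise. HT55_ITRA replicate 3 lay farthest from the rest of its group, with an SD over genes of its log2 difference of 0.491 against 0.204 to 0.422 in the other libraries. All 8 epithelial markers, including KRT8, EPCAM and CDH1, were expressed in every library. Of the 7 fibroblast markers 3 or 4 had no count in each group, and their summed level was at most 12.1 CPM, while the endothelial markers summed to at most 0.712 CPM. The 4 leukocyte markers summed to 110 to 113 CPM in treated SW948 against 15.8 to 23.5 in its controls, nearly all of it CD68, which is also a lysosomal protein, and their part in the results was not tested. In bulk RNA, fewer cells of a type and less RNA per cell cannot be told apart.

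LAMA3 (ENSG00000053747, chromosome 18, 21269417 to 21536186, plus strand) encodes the alpha 3 chain, and LAMA5 (ENSG00000130702, chromosome 20, 60883011 to 60942368, minus strand) the alpha 5 chain. LAMB1 (ENSG00000091136, chromosome 7, 107564244 to 107643658, minus strand) and LAMB3 (ENSG00000196878, chromosome 1, 209788215 to 209825770, minus strand) encode beta chains, and LAMC1 (ENSG00000135862, chromosome 1, 182992555 to 183114727, plus strand) the gamma 1 chain. The integrin genes are ITGA2 (ENSG00000164171, chromosome 5, 52285170 to 52390609, plus strand), ITGA3 (ENSG00000005884, chromosome 17, 48133332 to 48167845, plus strand), ITGA6 (ENSG00000091409, chromosome 2, 173292082 to 173371187, plus strand) and ITGB4 (ENSG00000132470, chromosome 17, 73717408 to 73753899, plus strand). These coordinates are on GRCh37, the build the authors aligned to (hg19). All 9 are protein coding, and each count is per gene, not per exon or transcript. The exons of LAMA5 share 1.71% of their bases with ADRM1 and those of LAMB1 share 1.61% with DLD, in both cases on the opposite strand. Whether counting used strand is not given in the sources used here, so reads in those stretches cannot be assigned with certainty.

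The bases before the start of transcription are shown for 4 laminin genes. LAMA3 rose in HT55 and fell in SW948, while LAMB3, LAMB1 and LAMC1 rose in both lines, LAMB3 far more in SW948. Each run is the 250 bases upstream of a RefSeq start on GRCh38.p14, 5′ to 3′ on the gene's own strand. In LAMA3 and LAMB3 the capitals mark TGANTCA, the letters bound by AP-1, a pair of basic leucine zipper proteins. In LAMB1 and LAMC1 they mark GGGCGG or its reverse complement, the GC box. The LAMA3 and LAMB3 windows shown also hold 1 GC box each, left in small letters. Of the 3 LAMB3 windows, the one with TGANTCA is shown.
LAMA3, chr18:23872770-23873019, plus strand: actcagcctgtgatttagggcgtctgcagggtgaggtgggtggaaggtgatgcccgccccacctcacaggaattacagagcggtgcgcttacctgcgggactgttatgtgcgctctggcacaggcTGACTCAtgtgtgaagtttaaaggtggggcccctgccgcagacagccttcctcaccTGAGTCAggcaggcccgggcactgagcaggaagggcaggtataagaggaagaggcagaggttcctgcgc
LAMB3, chr1:209651375-209651624, minus strand: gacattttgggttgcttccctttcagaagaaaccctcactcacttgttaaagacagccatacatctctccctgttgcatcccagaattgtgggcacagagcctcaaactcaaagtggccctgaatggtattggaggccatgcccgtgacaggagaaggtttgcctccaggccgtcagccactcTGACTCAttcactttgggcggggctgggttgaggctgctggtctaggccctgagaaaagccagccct
LAMB1, chr7:108003162-108003411, minus strand: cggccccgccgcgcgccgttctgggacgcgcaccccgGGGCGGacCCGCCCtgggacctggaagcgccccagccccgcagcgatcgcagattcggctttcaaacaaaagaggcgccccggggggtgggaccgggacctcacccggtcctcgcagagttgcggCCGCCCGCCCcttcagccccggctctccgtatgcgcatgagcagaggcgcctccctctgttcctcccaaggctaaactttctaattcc
LAMC1, chr1:183023170-183023419, plus strand: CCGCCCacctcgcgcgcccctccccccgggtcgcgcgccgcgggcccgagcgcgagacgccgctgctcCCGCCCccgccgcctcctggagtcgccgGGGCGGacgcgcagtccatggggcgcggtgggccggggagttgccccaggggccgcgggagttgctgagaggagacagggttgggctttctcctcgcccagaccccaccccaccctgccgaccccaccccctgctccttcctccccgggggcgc

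RefSeq windows were matched for 7 of the 9 genes, 10 windows in all, with 3 for LAMB3, of which windows 1 and 2 share bases, and 2 for ITGA6. ITGA3 and ITGB4 had no entry. Both strands were searched. TGANTCA occurred at 2 places in the LAMA3 window, starting 125 and 69 bases before the start, and at 1 place in the LAMB3 window shown, 67 bases before the start. The other 8 windows did not hold these letters, and 6.57% of 35116 RefSeq windows of the same length did. Both LAMA3 matches overlapped CANNTG, the E-box letters, which 7 of the 10 windows and 61.8% of all windows held. GGGCGG was in 9 of the 10 windows, against 42.6% of all, with 5 matches in LAMA5, 4 each in LAMB1 and ITGA2, 3 each in LAMC1 and 1 of the ITGA6 windows, and 1 in each of the others that held it. GGAATG, the letters bound by TEAD proteins, was in 0 of the 10 windows and in 11.9% of all. LAMA3 has transcripts of 5007 to 10651 bases, so the start shown need not be the one in use in these cells, and a match of letters is a description, not a binding site.

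Itraconazole was compared with DMSO within each line. In HT55, 8 of the 9 genes passed the test (edgeR quasi-likelihood, Benjamini-Hochberg adjusted p under 0.05 over all genes), 7 of them higher and 1 lower, where 54% of the 12133 genes tested passed in either direction, 27.5% higher and 26.5% lower. The median log2 fold change of the 9 was 0.32, beside -0.015 for all genes. In SW948 all 9 passed, 5 higher and 4 lower, where 80.2% of 12505 genes passed, 38.9% higher and 41.3% lower, so most genes of any kind passed in this line. Their median was 0.88, beside -0.025 for all genes. LAMB1, LAMC1 and LAMA5 rose and ITGA2 fell in both lines, whereas LAMA3 rose in HT55 and fell in SW948.

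**Figure D1:**
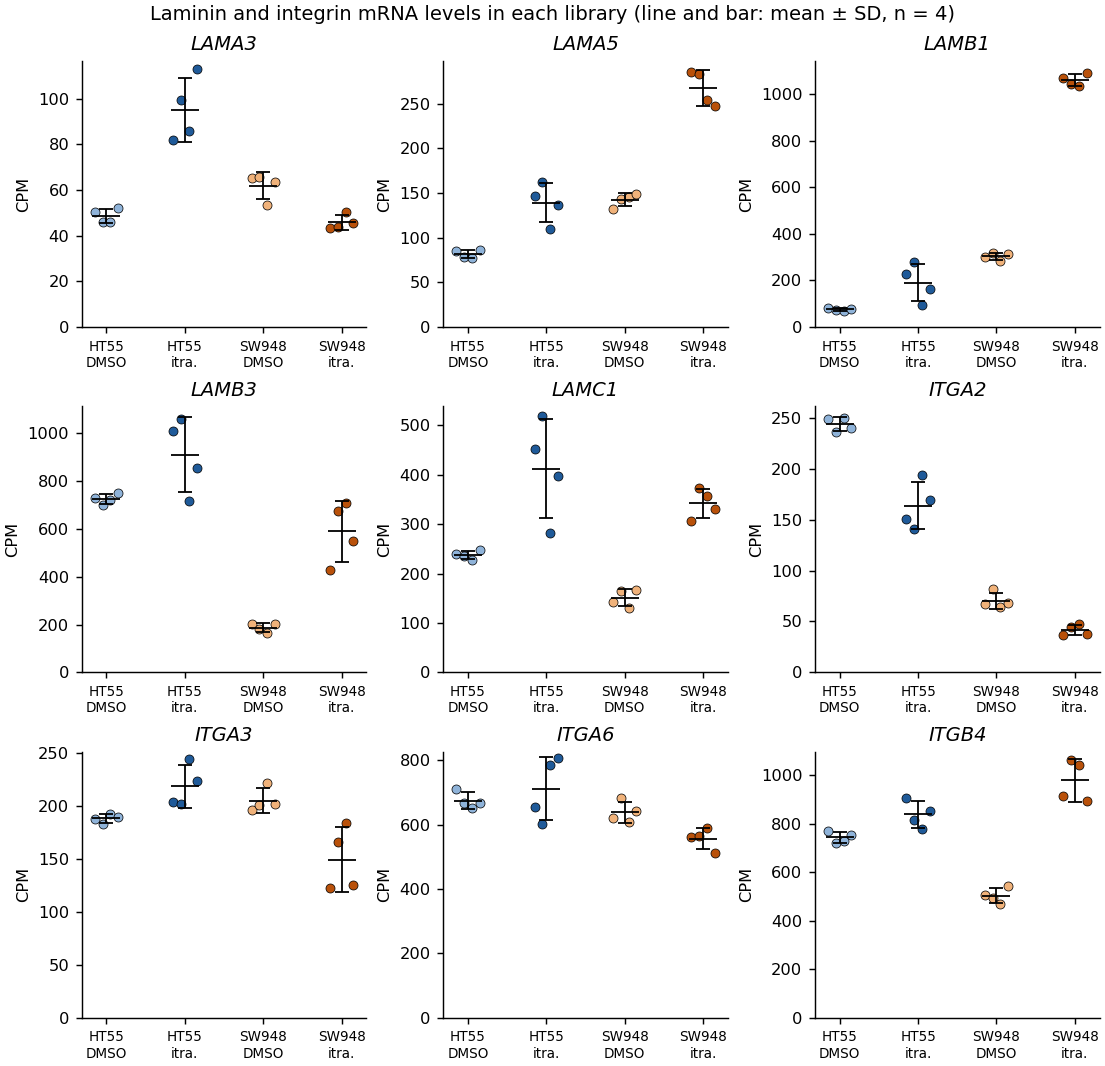
Level of each gene in CPM (linear axis from 0) in the 4 libraries of each group; points are libraries, and the line with its bar is the mean ± SD. LAMB1 in treated SW948 sits between 1032 and 1090 CPM, above every other library, and LAMA3 is highest in treated HT55, at 82.0 to 113 CPM.

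LAMB1, the beta 1 chain of the laminins that also contain alpha 5 and gamma 1, had the largest change of the 9 genes in both lines. In HT55 the controls were at 80.7, 72.6, 70.1 and 77.3 CPM and the treated libraries at 226, 278, 94.9 and 162 CPM. All treated libraries lay above all controls, but they spread widely among themselves. The log2 fold change was 1.33 (SE 0.26, adjusted p = 0.00157 by edgeR), larger than that of 95.1% of the genes tested, and leaving out 1 library gave 1.09 (without treated replicate 2) to 1.57 (without treated replicate 3). In SW948 the controls stood at 299, 317, 284 and 311 CPM and the treated libraries at 1067, 1044, 1032 and 1090 CPM. The groups were far apart and tight, with a log2 fold change of 1.77 (SE 0.064, adjusted p = 4.61e-11 by edgeR), a 3.42-fold rise.

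LAMC1, the gamma 1 chain shared by most laminins, was 240, 235, 227 and 247 CPM in the HT55 controls and 452, 519, 283 and 397 CPM after itraconazole. In SW948 it was 142, 165, 131 and 166 CPM in controls and 307, 373, 358 and 330 CPM after treatment. The groups did not overlap in either line. The log2 fold changes were 0.79 (SE 0.15, adjusted p = 0.00127 by edgeR) in HT55 and 1.15 (SE 0.089, adjusted p = 3.77e-08) in SW948.

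LAMA5, the alpha 5 chain of the intestinal basement membrane, was 85.3, 78.2, 77.8 and 86.1 CPM in HT55 controls and 147, 162, 110 and 137 CPM in treated HT55. In SW948 it was 132, 143, 146 and 149 CPM in controls and 286, 283, 254 and 247 CPM in treated libraries. All treated libraries exceeded all controls of their line. Its log2 fold changes were 0.76 (SE 0.11, adjusted p = 0.000226 by edgeR) in HT55 and 0.88 (SE 0.068, adjusted p = 3.7e-08) in SW948. With a correction for GC content and length the HT55 value was 0.42 (adjusted p = 0.0256). The level in treated HT55, 139 ± 21.9 CPM, was not separated from that in SW948 controls, 142 ± 7.23 CPM (exact permutation test, two-sided p = 0.8).

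LAMA3, the alpha 3 chain of the hemidesmosome laminin, moved in opposite directions. In HT55 the controls were at 50.2, 46.1, 45.8 and 52.3 CPM and the treated libraries at 82.0, 99.3, 85.9 and 113 CPM, with no overlap. In SW948 the controls were at 65.1, 65.8, 53.3 and 63.4 CPM and the treated libraries at 43.5, 43.9, 50.5 and 45.5 CPM, also with no overlap, although the lowest control and the highest treated library differed by less than 3 CPM. The log2 fold change was 0.96 (SE 0.10, adjusted p = 4.71e-05 by edgeR) in HT55 and -0.47 (SE 0.085, adjusted p = 0.000165) in SW948. Treated SW948 fell to the level of the HT55 controls, and those groups overlapped (exact permutation test, two-sided p = 0.2).

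LAMB3, the beta chain that pairs with alpha 3, rose far more in SW948 than in HT55. Its SW948 controls were at 201, 182, 164 and 201 CPM and its treated libraries at 427, 675, 710 and 549 CPM, a log2 fold change of 1.62 (SE 0.14, adjusted p = 7.33e-08 by edgeR). In HT55 it was 731, 699, 722 and 749 CPM in controls and 1011, 1062, 718 and 854 CPM after treatment, and treated replicate 3 lay within the controls. That log2 fold change was 0.32 (SE 0.11, adjusted p = 0.028 by edgeR) and 0.44 (adjusted p = 0.000186) without treated replicate 3. The HT55 call was lost with plain library totals, at 0.15 (adjusted p = 0.163).

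ITGA2, the alpha 2 chain of a collagen and laminin receptor, was the only one of the 4 integrin genes that fell in both lines. It was 249, 236, 250 and 240 CPM in HT55 controls and 151, 141, 194 and 169 CPM after treatment. In SW948 it was 67.3, 81.8, 63.8 and 67.8 CPM in controls and 37.1, 44.6, 47.5 and 37.3 CPM after treatment. No group overlapped another, and the 4 groups were ordered HT55_CONT, HT55_ITRA, SW948_CONT, SW948_ITRA. The log2 fold changes were -0.58 (SE 0.092, adjusted p = 0.000531 by edgeR) in HT55 and -0.79 (SE 0.10, adjusted p = 5.85e-06) in SW948.

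ITGB4, the beta 4 chain that is found only with alpha 6, was 508, 496, 469 and 542 CPM in SW948 controls and 914, 1065, 1045 and 893 CPM after treatment. This was a log2 fold change of 0.93 (SE 0.079, adjusted p = 8.94e-08 by edgeR). In HT55 it was 769, 723, 729 and 755 CPM in controls and 907, 817, 777 and 855 CPM in treated libraries, which did not overlap but came within 8 CPM of each other. There the log2 fold change was 0.17 (SE 0.065, adjusted p = 0.0485 by edgeR), and it fell to 0.0024 (adjusted p = 0.974) with plain library totals.

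ITGA6, the partner of beta 4, changed least. In HT55 it was 712, 668, 652 and 668 CPM in controls and 656, 603, 785 and 807 CPM after treatment, with 2 treated libraries above and 1 below all controls, and it did not pass the test (log2 fold change 0.07, SE 0.095, adjusted p = 0.526 by edgeR). In SW948 it was 620, 682, 610 and 642 CPM in controls and 562, 565, 591 and 511 CPM after treatment. This small drop passed (log2 fold change -0.23, SE 0.068, adjusted p = 0.00684 by edgeR), though not after the correction for GC content and length (-0.12, adjusted p = 0.1).

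ITGA3, the alpha 3 chain of the laminin receptor alpha 3 beta 1, was 188, 183, 193 and 190 CPM in HT55 controls and 204, 202, 245 and 224 CPM after treatment. In SW948 it was 196, 201, 222 and 202 CPM in controls and 123, 166, 184 and 125 CPM in treated libraries. Neither line's groups overlapped. The log2 fold changes were 0.21 (SE 0.072, adjusted p = 0.0295 by edgeR) in HT55 and -0.49 (SE 0.11, adjusted p = 0.00118) in SW948. With plain library totals the HT55 value was 0.05 (adjusted p = 0.646).

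The small HT55 rises of LAMB3, ITGA3 and ITGB4 passed the test narrowly. Leaving out 1 library at a time, LAMB3 passed in 3 of 8 fits (without control replicate 4, or treated replicate 3 or 4), ITGA3 in 4 of 8 (without control replicate 3, or treated replicate 1, 2 or 3) and ITGB4 in 2 of 8 (without treated replicate 2 or 3). LAMA3, LAMA5, LAMB1, LAMC1 and ITGA2 passed in all 8, and in SW948 all 9 genes passed in all 8. Plain library totals in place of TMM moved the median log2 fold change of all genes from -0.015 to -0.18 in HT55 and from -0.025 to -0.354 in SW948. Calls over all genes were then 2280 higher and 4709 lower in HT55, against 3340 and 3213 with TMM, and 3147 and 6826 in SW948, against 4865 and 5165. On that scale 5 of the 9 genes passed in HT55, LAMA3, LAMA5, LAMB1 and LAMC1 higher and ITGA2 lower, and in SW948 each of the 9 kept its direction and its call. The median of the 9 was then 0.15 in HT55 and 0.55 in SW948. Among the SW948 values, ITGB4 was reduced to 0.59 and LAMA5 to 0.55, while LAMA3 stood at -0.8, ITGA3 at -0.83 and ITGA6 at -0.56. With the correction for GC content and length the same 5 genes as with plain totals passed in HT55, and LAMB3 (0.23, adjusted p = 0.145), ITGA3 (0.068, adjusted p = 0.345) and ITGB4 (-0.027, adjusted p = 0.771) did not.

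**Figure D2:**
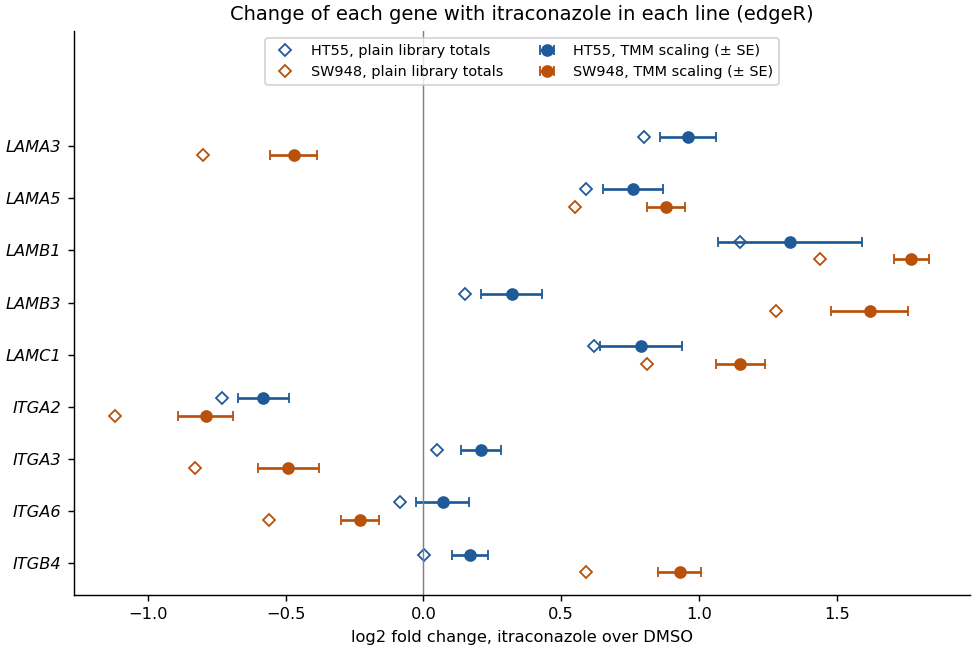
Log2 fold change of each gene, itraconazole over DMSO, in HT55 (blue) and SW948 (orange); filled circles with bars are the TMM-scaled estimate ± SE from edgeR, and open diamonds the estimate with plain library totals. LAMB1 lies farthest right in both lines, at 1.33 and 1.77, and LAMA3 lies on opposite sides of 0, at 0.96 and -0.47.

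Among the treated HT55 libraries, LAMA5, LAMB1, LAMB3 and LAMC1 were each highest in replicate 2, then replicate 1, replicate 4 and replicate 3, and ITGA2 and ITGA3 ran in the reverse order. LAMA3, ITGA6 and ITGB4 followed neither order. Over the 8 HT55 libraries the Pearson correlation of log2 CPM was 0.997 between LAMB1 and LAMC1 and -0.974 between LAMB1 and ITGA2, and over the 8 SW948 libraries it was 0.982 and -0.928. These libraries share their treatment contrast, so the values are a description and carry no test.

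The effect of itraconazole was compared between the lines by the interaction of line and treatment, in 1 fit of 16 libraries. It passed for 4 of the 9 genes, 2 in each direction, where 53.9% of 13249 genes passed, 24.8% with a positive and 29.1% with a negative difference. LAMB3 rose more in SW948 (SW948 effect minus HT55 effect 1.33, SE 0.19, adjusted p = 9.47e-06 by edgeR), and so did ITGB4 (0.79, SE 0.10, adjusted p = 4.8e-06). LAMA3 (-1.4, SE 0.14, adjusted p = 1.43e-07) and ITGA3 (-0.67, SE 0.15, adjusted p = 0.000718) had opposite signs in the lines. The HT55 effects of ITGA3 and ITGB4 were near 0 with plain totals (0.05 and 0.0024). With the GC and length correction they were 0.068 and -0.027. In the interaction LAMB3, ITGB4, LAMA3 and ITGA3 each passed in all 16 fits that left out 1 library and with plain totals. Plain totals moved the median of all genes from -0.041 to -0.232. The interaction did not pass for LAMB1 (0.47, SE 0.27, adjusted p = 0.152), LAMC1 (0.38, SE 0.18, adjusted p = 0.085), ITGA6 (-0.27, SE 0.12, adjusted p = 0.058), ITGA2 (-0.18, SE 0.14, adjusted p = 0.286) or LAMA5 (0.15, SE 0.13, adjusted p = 0.345). This does not show that these genes respond alike: without treated HT55 replicate 2, LAMB1, LAMC1 and ITGA6 passed as well, and ITGA6 also passed without treated HT55 replicate 1 or treated SW948 replicate 3. With plain totals ITGA6 (-0.47, adjusted p = 0.00428) and ITGA2 (-0.39, adjusted p = 0.0365) passed as well, and with the GC and length correction LAMC1 did (0.58, adjusted p = 0.00849).

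SW948 was then compared with HT55 in DMSO alone, with the control libraries that also served in the treatment comparisons. Of the 9 genes 8 passed, 4 higher and 4 lower in SW948, where 84.2% of 12820 genes passed, 42.6% higher and 41.6% lower (edgeR, Benjamini-Hochberg). LAMB1 was 4.04-fold higher in SW948 (log2 2.02, SE 0.049) and LAMB3 was 3.86-fold lower (log2 -1.95, SE 0.054). LAMA5 was 1.74-fold and LAMA3 1.28-fold higher in SW948, while ITGA2 was 3.47-fold, LAMC1 1.56-fold and ITGB4 1.47-fold lower. ITGA3 was 1.09-fold higher (adjusted p = 0.00872). ITGA6 did not pass (log2 -0.08, SE 0.044, adjusted p = 0.107), and its sign turned with plain totals (0.12, adjusted p = 0.0146), which moved the median of all genes from 0.012 to 0.205.

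Between the treated groups 8 of the 9 genes passed, 3 higher and 5 lower in SW948, where 76.6% of 12353 genes passed, 37.8% higher and 38.8% lower. LAMB1 was 5.6-fold higher in treated SW948 (log2 2.49, SE 0.25) and LAMA5 1.94-fold higher, whereas ITGA2 was 3.93-fold and LAMA3 2.06-fold lower. LAMB3 remained lower in SW948 but by 1.54-fold, and ITGA3 and ITGA6 were 1.46-fold and 1.28-fold lower. ITGB4 was higher by 1.17-fold (adjusted p = 0.0473), a call that stood in 2 of 8 fits leaving out 1 library, those without treated SW948 replicate 1 or 4. With the GC and length correction the LAMA3 value moved from -1.05 to -0.57 on the log2 scale (adjusted p = 0.000238). The ITGA6 call was lost without treated SW948 replicate 4. LAMC1 did not pass (log2 -0.26, SE 0.15, adjusted p = 0.129) and reached -0.4 (adjusted p = 0.00398) without treated HT55 replicate 3. ITGB4 was thus lower in SW948 than in HT55 in DMSO and higher after itraconazole, by a small and unstable margin.

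Levels were compared between genes per kilobase of the canonical transcript, which sets the chains on 1 scale. In HT55 controls LAMB3 was at 181 CPM per kb and LAMB1 at 13.3, with LAMC1 at 29.9, LAMA5 at 7.17 and LAMA3 at 4.56. In SW948 controls LAMB1 stood at 53.6 and LAMB3 at 46.6 CPM per kb, LAMC1 at 19.1, LAMA5 at 12.5 and LAMA3 at 5.81. After itraconazole LAMB1 in SW948 reached 187 CPM per kb, above the 147 of LAMB3. Of the 4 integrin genes, ITGB4 and ITGA6 were the highest in every group, at 85.4 to 166 and 95.8 to 123 CPM per kb, while ITGA3 was at 30.6 to 44.8 and ITGA2 at 5.31 to 31.1. ITGB1, the partner of alpha 2 and alpha 3, was at 120 to 205 CPM per kb.

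**Figure D3:**
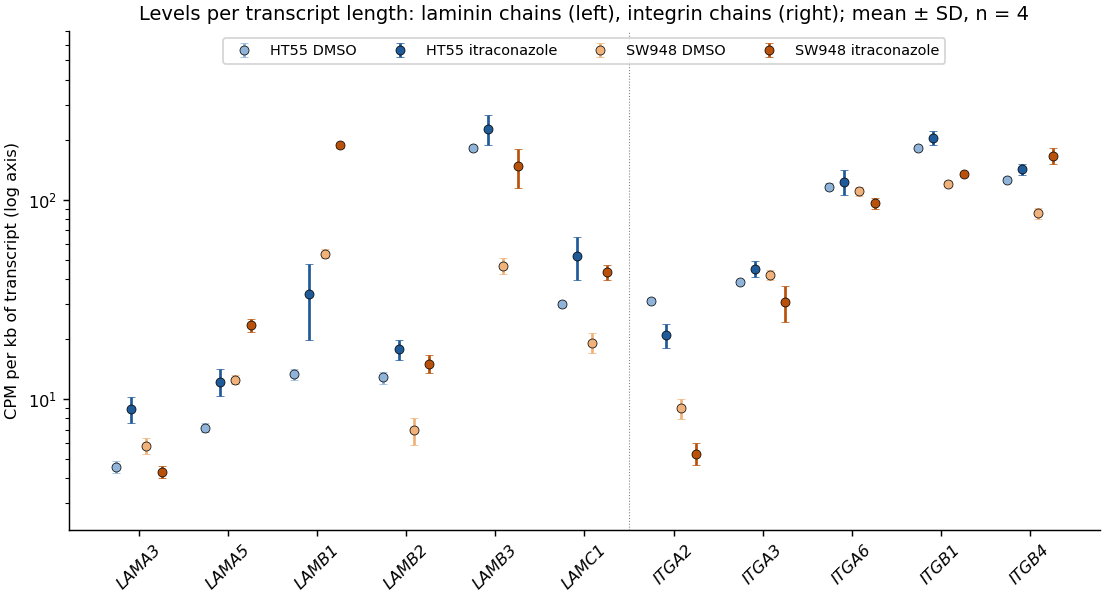
Mean ± SD (n = 4) of CPM per kilobase of canonical transcript on a log axis, for 6 laminin and 5 integrin chains in the 4 groups. LAMB3 is the highest laminin chain in HT55, at 181 and 227 CPM per kb, whereas LAMB1 reaches 187 in treated SW948.

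The choice of transcript matters for these levels. With its shortest coding transcript LAMA3 would stand at 9.7 instead of 4.56 CPM per kb in HT55 controls, above LAMA5, and ITGA6 at 190 instead of 116. With all annotated exons LAMB1 would stand at 16.3 instead of 53.6 CPM per kb in SW948 controls, below LAMB3 at 40.2. In HT55 the order of LAMA3 against LAMA5 and of ITGA6 against ITGB4, and in SW948 that of LAMB1 against LAMB3, is therefore not fixed by these counts. In treated SW948 LAMA3 was below LAMA5 with any of the 3 lengths, at most 9.16 against at least 18.7 CPM per kb, and in SW948 controls ITGA6 was above ITGB4, at least 95.6 against at most 90.7. With the same transcript length used in all groups, changes of a ratio depend neither on that length nor on library scaling. A change of transcript use between groups would move them and cannot be seen in gene counts. The ratios were not corrected for GC content and length. That correction moved the SW948 log2 fold changes of ITGA6 from -0.23 to -0.12 and of ITGB4 from 0.93 to 0.75.

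Ratios of LAMB3 over LAMB1, LAMA3 over LAMA5 and ITGA6 over ITGB4 were compared over libraries by exact permutation tests (two-sided, 12 tests, Benjamini-Hochberg adjusted). The smallest p that 4 against 4 libraries allow is 0.0286. The 12 tests include those of SW948 against HT55, in controls and in treated libraries, each with exact p = 0.0286 (adjusted p = 0.0381). Pooling with these line tests lowers the adjusted p for itraconazole, and no adjustment over the itraconazole tests alone was made. LAMB3 over LAMB1, per base of canonical transcript, was 13.6 ± 0.717 in HT55 controls and 7.43 ± 2.30 after itraconazole, a log2 change of -0.92 (exact p = 0.0286, adjusted p = 0.0381). In SW948 it was 0.869 ± 0.0686 and 0.788 ± 0.186, and the groups overlapped (log2 change -0.17, exact p = 0.486). LAMB1 thus gained on LAMB3 in HT55, and no such shift was detected in SW948.

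LAMA3 over LAMA5 was 0.636 ± 0.00974 in HT55 controls and 0.745 ± 0.138 after treatment (log2 change 0.21, exact p = 0.314). In SW948 it fell from 0.468 ± 0.0588 to 0.185 ± 0.0242 (log2 change -1.34, exact p = 0.0286, adjusted p = 0.0381), since LAMA3 fell while LAMA5 rose. ITGA6 and ITGB4 encode the chains of 1 dimer, and their ratio fell in SW948 from 1.29 ± 0.0859 to 0.579 ± 0.035 (log2 change -1.15, exact p = 0.0286, adjusted p = 0.0381). In HT55 it was 0.92 ± 0.0217 and 0.866 ± 0.147, with overlapping groups (exact p = 0.429).

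**Figure D4:**
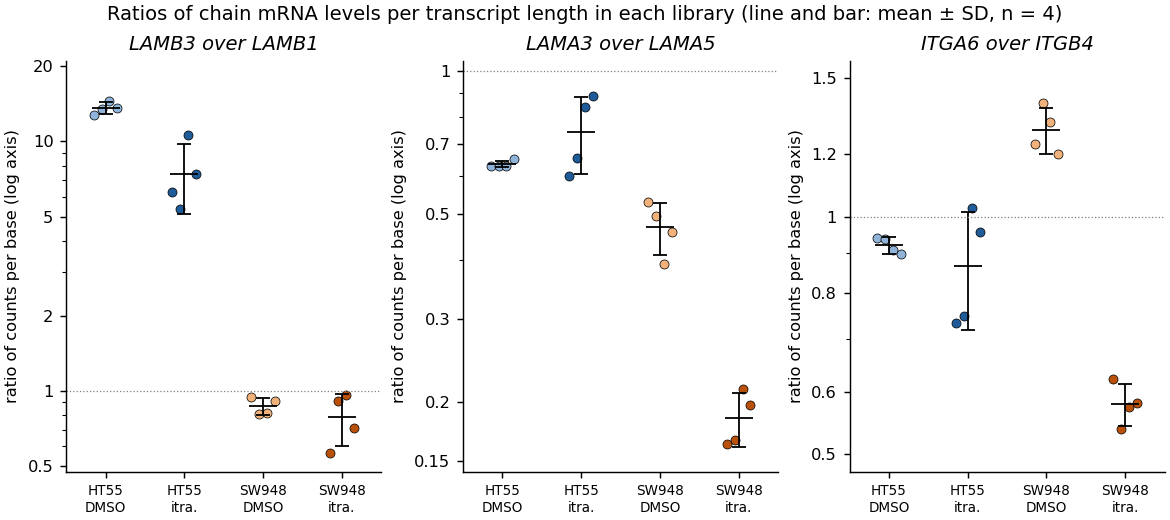
Ratio of counts per base of canonical transcript in each library (points, log axis) with mean ± SD, for LAMB3 over LAMB1, LAMA3 over LAMA5 and ITGA6 over ITGB4; the dotted line marks equal levels. LAMB3 over LAMB1 separates the lines, at 5.38 or more in HT55 and below 1 in SW948, and the other 2 ratios drop with itraconazole in SW948. With the length of all annotated exons LAMB3 over LAMB1 would be 15.3 or more in HT55 and 1.6 to 2.75 in SW948, above the dotted line.

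The other genes of the same system were counted from 6 lists of 54 genes, of which 37 were tested in HT55 and 39 in SW948. In HT55 20 were higher and 6 lower after itraconazole, and in SW948 20 were higher and 14 lower, beside 54% and 80.2% of all genes passing. The median log2 fold change was 0.24 in both lines. With plain library totals the split was 13 higher and 8 lower in HT55 (median 0.07) and 12 higher and 18 lower in SW948 (median -0.09), so the balance of the lists in SW948 depends on the scaling. With the GC and length correction the median in HT55 was 0.14.

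LAMB2, the beta chain typical of muscle and kidney basement membranes, rose by 0.47 in HT55 and 1.07 in SW948 on the log2 scale. LAMA4, an alpha chain of blood vessels, rose in HT55 from 1.41 to 8.19 CPM (log2 2.52) and was not tested in SW948, where it was near 1 CPM. LAMA2, the alpha chain of muscle, fell in HT55 from 88.2 ± 5.48 to 34.0 ± 19.3 CPM (log2 -1.37, adjusted p = 0.00351) and was near 1 CPM in SW948.

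Of the 10 other integrin chains tested for the interaction, 4 passed, each with a lower effect in SW948, beside 53.9% of all genes. ITGB1 passed in neither (log2 0.17, adjusted p = 0.0582 in HT55; 0.12, adjusted p = 0.0639 in SW948, edgeR). ITGAV, ITGB5 and ITGB6, which form receptors for vitronectin, fibronectin and latent TGF-beta, rose in HT55 by 0.39, 0.17 and 0.31 and fell in SW948, where their log2 fold changes were -0.61, -0.71 and -0.55. Each of these 3 differed between the lines in the interaction, and each HT55 rise was lost with plain library totals. ITGA1, the alpha chain of a second collagen receptor, fell in both lines. Its log2 fold change was -0.72 in HT55 and -3.62 in SW948, where it dropped from 5.69 to 0.447 CPM, 16 counts in 4 libraries. ITGA5 and ITGA7 rose in SW948 at levels under 3 CPM, and those calls were lost with plain totals. ITGA9, ITGB7 and ITGB8 did not pass for itraconazole against DMSO in the lines where they were tested.

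Of the 4 hemidesmosome and tetraspanin genes, COL17A1 and DST rose in HT55 and fell in SW948, the directions LAMA3 took. COL17A1, the transmembrane collagen of hemidesmosomes, rose in HT55 from 151 ± 14.3 to 213 ± 25.8 CPM (log2 0.49, adjusted p = 0.00198 by edgeR) and fell in SW948 from 306 ± 22.1 to 83.0 ± 9.41 CPM (log2 -1.91, adjusted p = 2.16e-10). DST, which encodes a plakin that ties integrin beta 4 to keratin, rose in HT55 (log2 1.04, adjusted p = 9.97e-05) and fell in SW948 (log2 -0.82, adjusted p = 7.85e-06). PLEC, the other plakin, rose by 0.43 and 0.45 with TMM and passed in neither line with plain totals, nor in HT55 once GC content and length were corrected for (0.01, adjusted p = 0.895). CD151, a tetraspanin that associates with laminin-binding integrins, changed by -0.38 in HT55 and by 0.30 in SW948 on the log2 scale, and its sign in SW948 turned with plain totals (-0.04, adjusted p = 0.615), while the call was lost once GC content and length were corrected for (0.13, adjusted p = 0.0596). The interaction passed for COL17A1, DST and CD151 and did not for PLEC (adjusted p = 0.766).

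**Figure D5:**
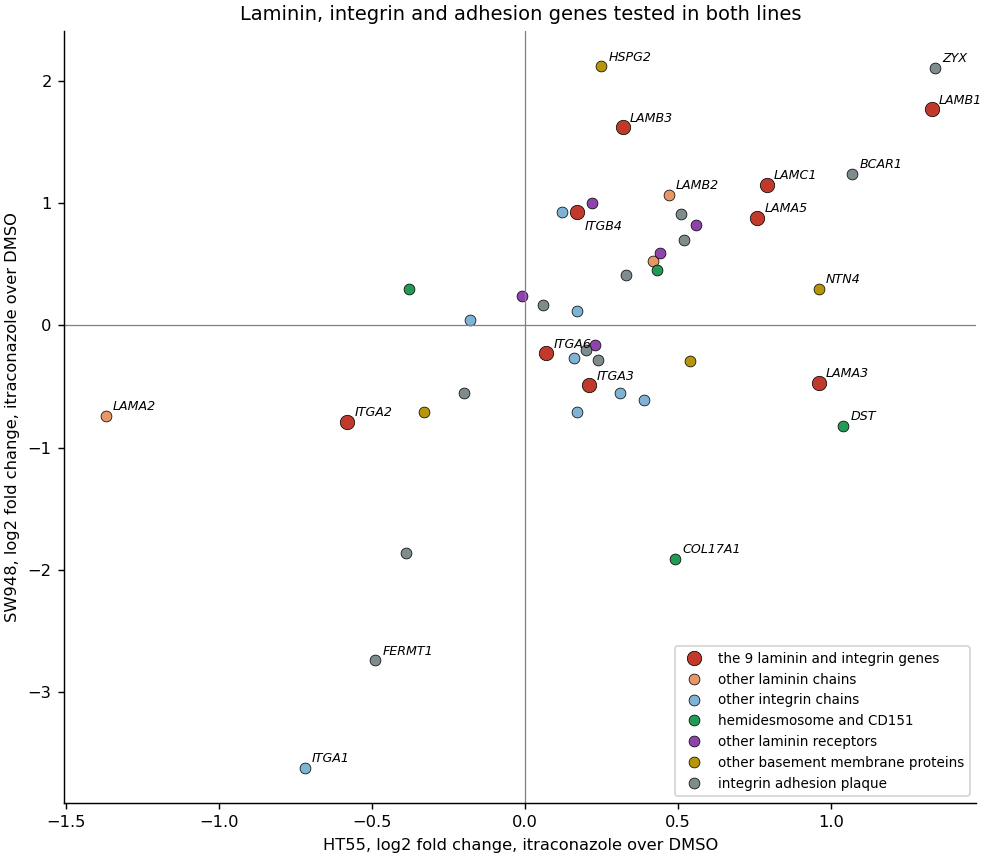
Log2 fold change with itraconazole in HT55 (x axis) and SW948 (y axis) for the 44 genes tested in both lines, coloured by list, with the 9 laminin and integrin genes as large red points. LAMA3, DST and COL17A1 lie to the lower right (higher in HT55, lower in SW948), and LAMB1, LAMC1 and LAMA5 to the upper right.

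Of 5 other laminin receptors, HT55 had 3 higher and 0 lower, and SW948 had 4 higher and 1 lower. Over all genes tested, 54% passed in HT55 (27.5% higher, 26.5% lower) and 80.2% in SW948 (38.9% higher, 41.3% lower). SDC1, a cell surface proteoglycan, rose by 0.56 in HT55 and 0.82 in SW948. SDC4, a second proteoglycan, rose by 0.44 in HT55 and from 246 ± 14.6 to 379 ± 11.2 CPM in SW948. BCAM, a receptor of alpha 5 laminins, rose by 1.0 in SW948 (adjusted p = 6.47e-08 by edgeR) and did not pass in HT55 (0.22, adjusted p = 0.374). Of other basement membrane proteins, 2 of 5 tested were higher and 1 lower in HT55, and 4 of 6 were higher and 2 lower in SW948. COL4A1, a collagen IV chain, fell in HT55 from 40.9 to 12.0 CPM (log2 -1.78). NTN4, a netrin that binds laminin, rose by 0.96 in HT55 and by 0.3 in SW948, where its sign turned with plain totals (-0.03, adjusted p = 0.744 by edgeR). In SW948 HSPG2, which encodes perlecan, rose from 22.0 to 97.5 CPM (log2 2.12), and COL7A1, the anchoring fibril collagen, rose by 3.43 from 0.372 CPM, 18 counts in 4 control libraries. The 11 adhesion plaque genes tested gave 6 higher and 2 lower in HT55 against 6 higher and 5 lower in SW948. With plain library totals the plaque genes in SW948 were 4 higher and 6 lower. With the GC and length correction the basement membrane proteins in HT55 were 1 higher and 2 lower. ZYX rose by 1.34 and 2.11 and BCAR1 by 1.07 and 1.24 in HT55 and SW948, while FERMT1, which encodes an integrin activator of epithelia, went down in HT55 (-0.49) and SW948 (-2.74).

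For each of the 9 genes the most similar patterns were sought among 9178 genes outside the lists, as the Pearson correlation of log2 CPM over the 16 libraries. The libraries fall into 4 groups, so a high value means a like order of group levels, and no p is given. LAMB1 was most like SDHD and RAB11FIP4 (both 0.995), LAMB3 like EEF2 (0.994), ITGA2 like RFWD3 (0.994), LAMA5 like ARCN1 (0.991) and ITGB4 like KYAT1 (0.987). LAMC1 was most like FTL and C1orf43 (both 0.983) and LAMA3 like QSOX1 (0.97). ITGA6 and ITGA3 had no gene above 0.91 (STK38 for ITGA6, and SLC38A7 and MBD6 at 0.9 for ITGA3). Among the 9 genes LAMA5 and LAMB1 were the most alike over the 16 libraries (0.979), and LAMB1 and ITGA2 were the most opposed (-0.956).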

How the data were processed

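The members and gene lists were chosen with earlier results of these data known. The authors prepared TruSeq libraries, sequenced single-end reads of 50 bp, aligned them to hg19 and deposited raw read counts per Ensembl gene, 1 file a library. The submitters' processing notes name TopHat, HTSeq and DESeq; their versions, the annotation release and the strand setting are not given in the sources used here. Alignments that were not unique (22.0 to 27.9% of the sum of a file) were kept out of genes and of library sizes, as were the other 4 totals, which include 3.79 to 4.94% outside genes.

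Counts were tested with edgeR 4.0.16 in R 4.3.3 (quasi-likelihood test, TMM, filterByExpr, Benjamini-Hochberg adjusted p under 0.05 over all genes tested). Each line was fitted on its 8 libraries, the lines were compared in controls and in treated libraries separately, and the interaction was fitted on 16. The scripts were tested on simulated counts. No pair of libraries agreed within sampling noise (chi-square per degree of freedom 1.43 or more). Symbols, lengths and coordinates came from GENCODE on GRCh37, and promoters from RefSeq (GRCh38.p14). The order of group levels used 27 exact permutation tests.

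Named genes were the 9 members, the other laminin, integrin and hemidesmosome genes passing the filter, and from each other list the 2 called genes with the largest change in each line. Similar patterns were taken from genes whose log2 CPM (prior count 2) averaged 3 or more. Alternatives were DESeq2 size factors, plain library totals, the DESeq2 1.42.0 Wald test, no filter, at least 10 counts in every library, a replicate block, leaving out each library, leaving out the 20 top genes and mitochondrial genes, and 1 fit of 16 libraries. A correction for GC content and length, with and without the block, was added after the data had been seen. ITGB3 and PECAM1 were listed but not analysed here, and 1 other listed gene is counted within its list but not reported by name.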

Additional observations from a re-analysis of the deposited data

Results flagged for a closer look

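The effect of itraconazole differed between the lines, by the interaction test of edgeR with Benjamini-Hochberg adjustment, in 20 of the named genes. Given as the SW948 effect minus the HT55 effect on the log2 scale, the differences in the 9 genes were -1.4 for LAMA3, -0.67 for ITGA3, 1.33 for LAMB3 and 0.79 for ITGB4. Among the hemidesmosome and tetraspanin genes they were -2.37 for COL17A1, -1.84 for DST and 0.7 for CD151. Among other laminin chains they were -2.1 for LAMA4 and 0.63 for LAMB2, and among other integrin chains -2.86 for ITGA1, -0.97 for ITGAV, -0.85 for ITGB5 and -0.83 for ITGB6. In the remaining lists they were 2.85 for COL7A1, 1.89 for HSPG2, 0.81 for BCAM, 0.8 for ZYX, 0.29 for SDC1, -0.63 for NTN4 and -2.23 for FERMT1. The interaction passed for 53.9% of all genes tested, for 4 of the 9 genes and for 22 of the 41 related genes tested. Genes of the remaining lists were named for their large change in a line. The count of 20 is therefore not a share of an unselected set. LAMA4 and COL7A1 were near or below 1 CPM in some groups, and ITGA1 was below 1 CPM in treated SW948.

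In the 36 sets of 4 libraries formed by the 9 genes and 4 groups, no library stood far from the other 3 by Dixon's test, where 1.8 such sets would arise by chance.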

How the results depend on the processing

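Over all alternatives 808 of 873 fold changes of the 9 genes kept their direction and their side of the threshold, 41 lost the call, 17 gained one and 7 changed sign. The cause of these changes was not tested. The number of the 9 genes called in HT55 was 8 and became 5 with plain library totals, with the GC and length correction, and with that correction and the replicate block. Leaving out 1 library gave 5 to 8 genes in HT55, 9 in SW948, 8 to 9 between control groups, 7 to 8 between treated groups and 4 to 7 for the interaction, the highest without HT55_ITRA replicate 2. For the related genes it gave 23 to 31 in HT55 and 33 to 36 in SW948.

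With plain library totals ITGA6 changed sign in HT55 (log2 -0.085) and between control groups (0.12), and LAMA5 in the interaction (-0.036). With the GC and length correction ITGB4 changed sign in HT55 (-0.027, and -0.03 with the block), and LAMC1 between treated groups (0.06, and 0.082 with the block). With TMM these 5 values were 0.07, -0.08, 0.15, 0.17 and -0.26, and ITGB4 in HT55 was the only one that passed the test.

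Same-numbered libraries of different groups had correlated deviations of -0.12 to 0.116. The labels do not say whether the replicate numbers pair the samples, and these low values cannot settle it. With the replicate block 7 of the 9 genes were called in HT55 (ITGB4 lost, adjusted p = 0.088), 9 in SW948, 8 between control groups, 7 between treated groups (ITGB4 lost, adjusted p = 0.119) and 5 in the interaction (LAMC1 gained, adjusted p = 0.0406). The lowest count of any of the 9 genes in a library was 330, while COL7A1 had 18 counts in the SW948 controls and ITGA1 16 in treated SW948, so their fold changes are imprecise.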
